A study of Caenorhabditis elegans with 4 samples.

Results

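The metl genes of C. elegans are named for their likeness to the human methyltransferase-like (METTL) genes. The 5 described here, metl-1, metl-6, metl-9, metl-17 and metl-18, were taken by gene symbol, after each array probe's gene identifier had been matched to the current WBcel235 annotation. They are 5 of the 2222 genes that carried a ratio on all 4 arrays, and of the 7477 genes with a named probe. The annotation lists 8 genes with the metl stem, and metl-2, metl-5 and metl-13 were not analysed here, nor was mett-10. Each member was read by 1 probe, and all of them had a ratio on every array, so none was lost to the filter on missing ratios.

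Gonads dissected from cde-1 mutant worms (allele tm1021) and from wildtype worms (N2) were compared directly on arrays of 2 colours, 250 gonads being collected for a sample. An aged adult pair and a young adult pair of RNA samples were each hybridised once with the mutant in Cy5 and wildtype in Cy3, and once with the dyes exchanged. The gene cde-1 encodes an enzyme that puts uridines on the ends of small RNAs, and the series asks how germline expression varies without it. With 1 RNA sample per stage and genotype, both arrays of a stage measured the same cDNAs, the stage was the unit of replication (n = 2), and p-values measure only the spread between an aged and a young pair.

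Enzymes of this family share a fold that binds S-adenosylmethionine and passes its methyl group on to RNA, protein or small molecules. In humans, METTL1 makes 7-methylguanosine and METTL6 makes 3-methylcytidine in tRNAs. Human METTL9 and METTL18 methylate histidines in proteins, METTL18 in a protein of the large ribosomal subunit, and METTL17 acts in the assembly of the mitochondrial ribosome. Germ cells build large stores of ribosomes and mitochondria for the oocyte, so tRNA modification and ribosome assembly are prominent activities in this tissue.

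Values are log2 ratios, the deposited log10 ratios multiplied by 3.32, with mutant over wildtype as the likely direction. Neither the log base nor the direction was stated. The direction rests on number format alone: scientific notation was used for all 12418 aged and 11541 young ratios where Cy5 held the mutant, and for 0 where Cy3 did. The orientations of a stage correlated positively across genes (Pearson 0.44 in aged and 0.65 in young adults), which was read as 1 of them having been turned before deposit. If neither was turned, the mean of a stage holds the dye effect and the difference between its orientations the genotype effect, and the members are given under that reading too. The aged array whose Cy5 channel held the mutant stood apart by its spread, with an SD of 1.15 over the tested genes against 0.88 to 0.97 on the other arrays. Its median over the tested genes was also the highest, at 0.37 against -0.096 to 0.13 on the other arrays. A ratio of exactly 0 was taken as missing. No named probe represented cde-1, and 0 of 22 markers of germline, intestine, muscle, somatic gonad, hypodermis and neurons had one. Neither the deletion nor the tissue could therefore be checked through the named probes. Of 22562 probes, 14844 had no gene name here. Every share of genes given below covers only named genes, which need not represent all genes.

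The first comparison asked whether the metl genes differed between mutant and wildtype gonads over both stages. No member did by the test. Their mean log2 ratios lay between -0.15 and 0.24, and their median was 0.029, against 0.087 over all genes tested. By limma with Benjamini-Hochberg adjustment over all 2222 genes, 0 members and 0 genes had an adjusted p under 0.05 (0% of genes). At an unadjusted p under 0.05 there were 72 genes (3.24%) and again 0 members. Every member had an adjusted p of 0.9998 by limma.

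Each of these small averages joined stage means of opposite sign. All 5 metl genes had a positive mean in aged adults and a negative mean in young adults. A positive aged mean was held by 60.4% of the tested genes and a negative young mean by 48.4%. The share of genes with both is not given here, so how usual the pairing is cannot be read from these shares. The median of the metl genes was 0.60 in aged adults and -0.25 in young adults, against 0.18 and 0.025 over all genes. The aged means of metl-1 and metl-6, at 0.14 and 0.11, lay below that aged median of all genes. Those of metl-9, metl-17 and metl-18 lay above it. The aged mean lay above the young mean for 5 of 5 members and for 53.2% of genes. Stages were not tested against each other, because each rests on a single RNA sample per genotype.

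**Figure D1:**
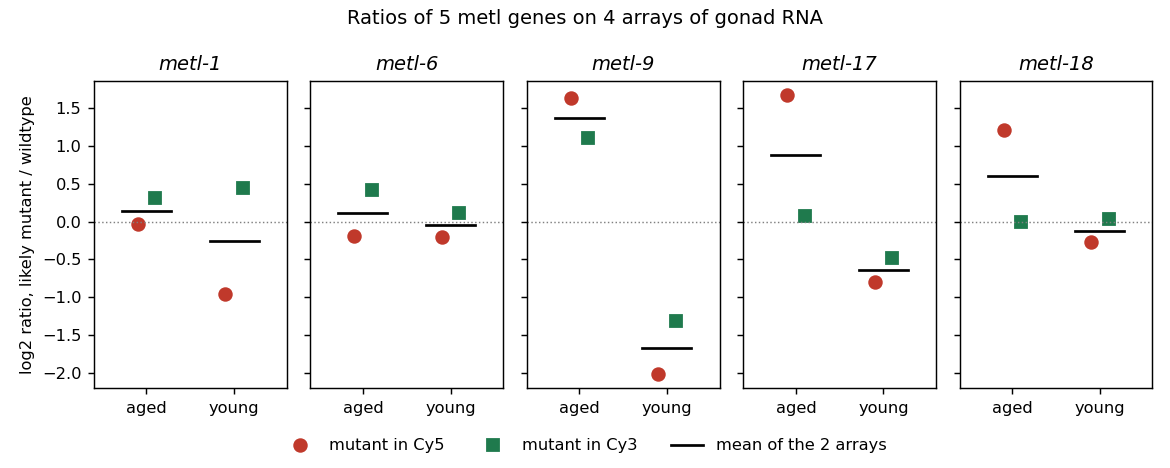
Log2 ratio (vertical axis, likely mutant over wildtype) of each metl gene on the aged and the young adult arrays. Circles are arrays with the mutant in Cy5, squares arrays with the mutant in Cy3, and bars the mean of both. The values of metl-9 lie above 1 on both aged arrays and below -1 on both young arrays. Those of metl-1 and metl-6 change sign with the dye orientation in each stage. The aged value of metl-1 with the mutant in Cy5, -0.030, is too near 0 for its sign to be read.

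The genes named for human tRNA enzymes are taken first. For metl-1, whose human counterpart works on tRNA together with a WD-repeat partner, the log2 ratio was -0.030 with the mutant in Cy5 and 0.31 with it in Cy3 in aged adults, against -0.95 and 0.45 in young adults. The young arrays enclosed the aged ones, so the stages overlapped fully. The young orientations lay 1.40 log2 units apart, and 2.70% of genes had a lower Cy5 minus Cy3 difference in that stage. The mean over both stages was -0.056 ± 0.50 (limma SE, n = 2 stages), with a 95% interval of -1.30 to 1.19.

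For metl-6, whose human counterpart acts on serine tRNAs, the ratio was -0.20 with the mutant in Cy5 and 0.42 with it in Cy3 in aged adults, against -0.21 and 0.11 in young adults. Both stages straddled 0 and overlapped. This was the member nearest to 0, with no array beyond 0.42 in size. Its mean over both stages was 0.029 ± 0.49 (limma SE, n = 2), with a 95% interval of -1.20 to 1.26. Ratios within 1 log2 unit of 0 on all 4 arrays were found for metl-1 and metl-6, and for 39.5% of genes.

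The genes named for human histidine methyltransferases differed in the size of their ratios. On the X chromosome, metl-9 had ratios of 1.64 with the mutant in Cy5 and 1.10 with it in Cy3 in aged adults, against -2.02 and -1.32 in young adults. The stages did not overlap, and the orientations agreed in sign within each stage. These are a 2.59-fold ratio in aged adults and a 0.315-fold ratio in young adults. The aged minus young difference was 3.04 log2 units, and 98.2% of genes had a lower one; if no array was turned before deposit, it was 0.62, and 85.5% of genes had a lower one. Only metl-9 among the members was above 1 on both aged arrays and below -1 on both young arrays, a combination held by 27 genes (1.22%). Its mean over both stages was -0.15 ± 0.81 (limma SE, n = 2), the widest error among the members, with a 95% interval of -2.18 to 1.89. The SD between its stage means was 2.15; limma draws the variance of each gene toward a common value, which makes the SE smaller for a gene with stages so far apart.

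The ratio of metl-18, on chromosome III, was 1.21 with the mutant in Cy5 and -0.0034 with it in Cy3 in aged adults, against -0.28 and 0.036 in young adults. Of the arrays, only the aged one labelled with Cy5 for the mutant stood away from 0; the stages overlapped. Without that array the aged value was the -0.0034 of the other one. The mean over both stages was 0.24 ± 0.51 (limma SE, n = 2), the highest among the members in the reading that 1 array was turned, with a 95% interval of -1.04 to 1.52, and it was -0.062 without that array.

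Human METTL17 acts on the mitochondrial ribosome, and metl-17 lies on chromosome I. Its ratio was 1.67 with the mutant in Cy5 and 0.075 with it in Cy3 in aged adults, against -0.80 and -0.48 in young adults. The stages did not overlap, but the aged mean of 0.87 came almost wholly from 1 array. Both young arrays were negative and lay 0.32 log2 units apart. The aged minus young difference was 1.51 log2 units, and 85.9% of genes had a lower one; with no array turned it was 0.96, with 94.0% lower. The mean over both stages was 0.12 ± 0.59 (limma SE, n = 2), with a 95% interval of -1.35 to 1.58, and it was -0.28 without the higher aged array.

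Taking the aged means in order, metl-9 (1.37) was followed by metl-17 (0.87), metl-18 (0.60), metl-1 (0.14) and metl-6 (0.11). Neighbours in this order overlapped in their array values, and metl-9 was clear of metl-1 and metl-6 alone. In young adults the order from the lowest was metl-9 (-1.67), metl-17 (-0.64), metl-1 (-0.25), metl-18 (-0.12) and metl-6 (-0.050). Here both arrays of metl-9 lay below every array of the other members, the nearest being -0.95 for metl-1. The other members overlapped with their neighbours in that order. Both orders hold for the reading that 1 array was turned before deposit, and they reverse if the sign does. With no array turned the orders differed. As gonad RNA was measured in bulk, fewer cells carrying a transcript and less transcript per cell cannot be told apart.

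The opposition of the stages was common in this data set. Ratios positive on both aged arrays and negative on both young arrays were found for 2 of 5 members, metl-9 and metl-17, and for 425 genes (19.1%). Stage values without overlap and with aged adults higher were found for the same pair of members and for 33.1% of genes. Over all tested genes the stage means correlated at -0.13 (Pearson). The differences between orientations, which hold the genotype effect if no array was turned, correlated at 0.25 (Pearson) between the stages. Genes with one sign on all 4 arrays made up 16.1% of the total and included 0 members. As a check, each array was centred on the median of all its probes with a ratio. All 5 members still had a positive aged and a negative young mean, beside 55.4% and 50.3% of genes. For the aged array whose Cy5 channel held the mutant, that median was 0.16, against 0.37 over the tested genes. Centring on the tested genes was not run. The aged means of metl-1 and metl-6, 0.14 and 0.11, lay below the aged median of these genes, 0.18. Their positive sign after centring therefore rests on which median is removed. Without the young array that had the mutant in Cy5, 2 members had a negative young value, so the shared sign in young adults rests on that array. In aged adults 4 members stayed positive without the array that had the mutant in Cy5, and 3 without the other one.

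**Figure D2:**
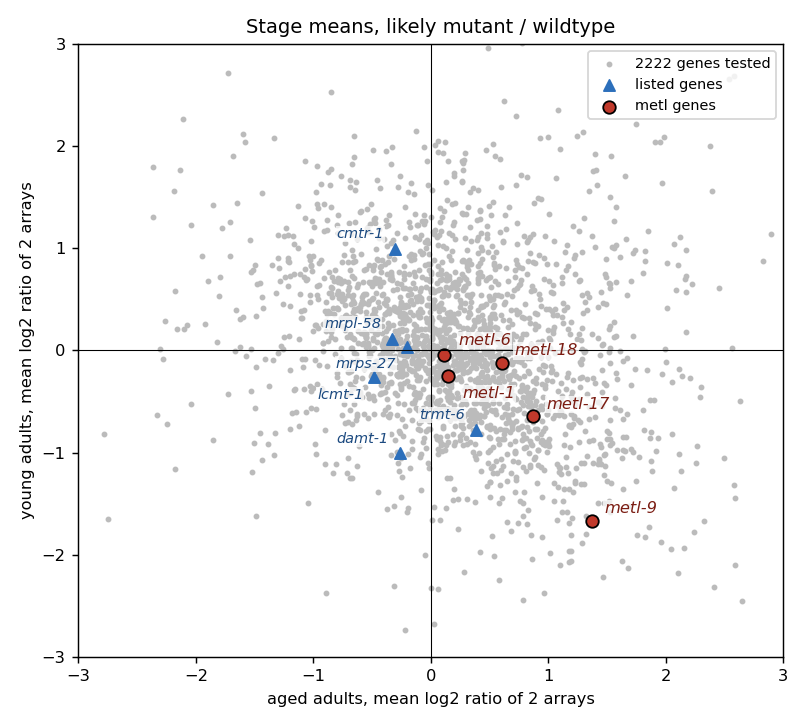
Mean log2 ratio in aged adults (horizontal axis) and in young adults (vertical axis) for the 2222 tested genes (grey; 19 lie outside the axes), the metl genes (red circles) and the tested genes of the methylation and translation lists (blue triangles). All 5 metl genes lie in the lower right quadrant, with metl-9 at 1.37 and -1.67.

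The orientations of a stage carried a pattern of their own. In young adults the array with the mutant in Cy5 was lower than the one with the mutant in Cy3 for 5 of 5 members, and for 35.1% of genes. In aged adults it was higher for 3 of 5 members, and for 65.8% of genes. Negative ratios with the mutant in Cy5 and positive ratios with the mutant in Cy3 in both stages were found for metl-1 and metl-6. Only 34 genes (1.53%) had this arrangement, and the opposite one was held by 162 genes (7.29%). With metl-18 the ratio was positive with the mutant in Cy5 and negative with it in Cy3 in aged adults and reversed in young adults. This sign combination was held by 30 of the 2222 tested genes. The value of -0.0034 for metl-18 is too near 0 for the sign to be read.

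If instead no array had been turned, the genotype effect is the swap effect, the ratio with the mutant in Cy5 minus that with it in Cy3, divided by 2. On this scale metl-1 had -0.17 in aged and -0.70 in young adults, with a mean of -0.44 ± 0.21 (limma SE, n = 2; adjusted p = 0.464). For metl-6 the swap effects were -0.31 in aged and -0.16 in young adults, with a mean of -0.23 ± 0.16 (limma SE, n = 2; adjusted p = 0.568). Of the 5 members, metl-1 and metl-6 were the 2 with one sign in both stages, an agreement found for 64.5% of genes. The sign was negative, as for 16.9% of genes. The remaining members had opposed stages, with 0.27 in aged and -0.35 in young adults for metl-9, 0.80 and -0.16 for metl-17, and 0.61 and -0.16 for metl-18. On this scale the aged order was metl-17, metl-18, metl-9, metl-1 and metl-6, and the lowest young value was that of metl-1 and not of metl-9. Over both stages metl-17 was highest, at 0.32 ± 0.30 (limma SE, n = 2), above metl-18 at 0.22 ± 0.26. Under this reading limma called 0 genes and 0 members (0% of genes) at an adjusted p under 0.05; 291 genes (13.1%) and 0 members had an unadjusted p under 0.05. The median swap effect of all genes was 0.18 in aged and 0.100 in young adults, and the positive sign was the more frequent in both stages.

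**Figure D3:**
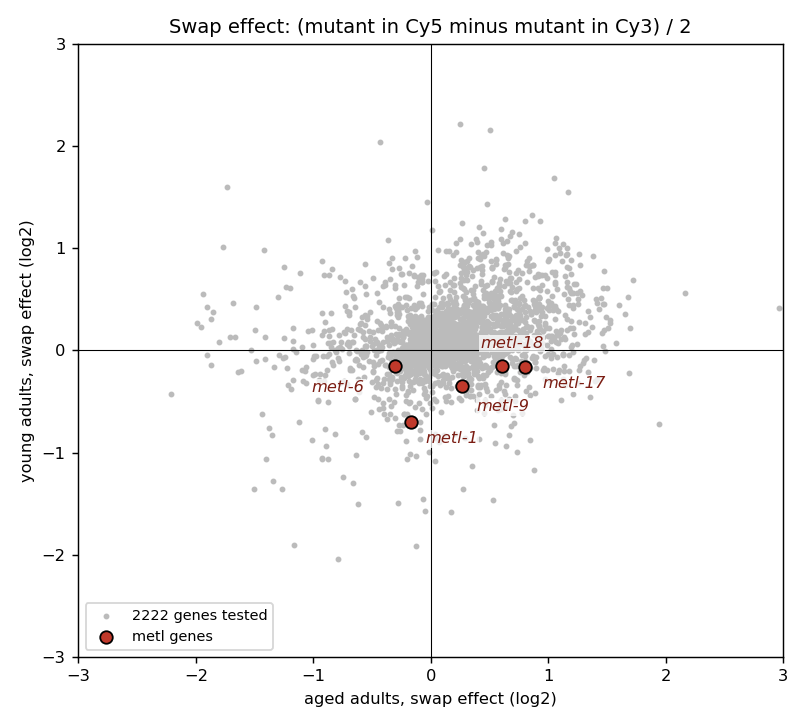
Swap effect, the value with the mutant in Cy5 minus that with the mutant in Cy3, divided by 2, in log2 units, in aged adults (horizontal axis) and young adults (vertical axis) for 2222 genes (grey) and the metl genes (red). All metl genes lie below 0 in young adults, and metl-1 and metl-6 also in aged adults.

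Genes of related function were taken from 7 lists defined by name stem, covering other RNA and DNA methyltransferases, protein and small molecule methyltransferases, the S-adenosylmethionine cycle, aminoacyl-tRNA synthetases and both sets of ribosomal proteins. Of 251 annotated genes in these lists 7 had a named probe and 6 were tested, and 0 of the 6 passed in either direction by limma. The tested genes of the first list were trmt-6, damt-1 and cmtr-1. Another gene with a named probe, nsun-2, an RNA cytosine methyltransferase gene, lacked a ratio on at least 1 array.

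Of these, trmt-6, named for the human partner subunit of a tRNA adenosine methyltransferase, had aged ratios of 0.49 and 0.27 and young ratios of -0.54 and -1.02, the mutant in Cy5 given first. It shared the sign combination of metl-9 and metl-17. The ratios of damt-1, a METTL4 relative described in worms as a DNA adenine methyltransferase, were -0.23 and -0.30 on the aged arrays and -0.79 and -1.23 on the young arrays, with one sign throughout. For cmtr-1, named for the human enzyme that methylates the cap-adjacent ribose of mRNA, they were -0.25 and -0.37 in aged gonads and 1.06 and 0.93 in young gonads, the opposite arrangement. Thus the aged mean lay above the young mean in 2 of the 3.

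Among protein methyltransferases, lcmt-1, whose human counterpart methylates a phosphatase subunit at its terminal leucine, had aged ratios of -1.37 and 0.41 and young ratios of -0.46 and -0.070. Its aged orientations disagreed in sign. Both tested genes of the mitochondrial ribosome, the particle on which human METTL17 acts, lay near 0. The ratios of mrps-27 averaged -0.20 in aged and 0.037 in young adults, and those of mrpl-58 averaged -0.33 and 0.11. Neither had the positive aged and negative young means of metl-17. The remaining 4 lists had 0 tested genes.

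The genes whose 4 array values lay nearest to each member, by Euclidean distance in log2 units over the 4 arrays, were not metl genes. Nearest to metl-1 were M199.2 at 0.23 and T06E8.2 at 0.45. For metl-6 they were ZK686.2 at 0.20 and W03F8.4 at 0.27. All of these genes had aged and young means at most 0.19 log2 units from 0.

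For metl-9 the nearest genes were C25A11.2 at 0.36, also on the X chromosome, and Y60A3A.8 at 0.42. The first had aged and young means of 1.29 and -1.89, and the second of 1.19 and -1.81. Genes this near to metl-9 share its signs by the way they were picked, above 0 in aged and below 0 in young adults. For metl-17 they were Y65B4A.4 at 0.21 and eral-1 at 0.34. With metl-18 they were Y75B8A.13 at 0.39 and syf-3 at 0.40. Within the metl genes the distances ran from 0.84, between metl-1 and metl-6, to 3.02, between metl-6 and metl-9, over 10 pairs, and the median over all pairs of tested genes was 2.27. The next closest pair, metl-17 and metl-18 at 0.87, shared a high value on 1 array, the aged one where Cy5 held the mutant.

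Of the genes directly next to a member on its chromosome, only ZK1058.3, beside metl-6 on chromosome III, had a ratio on all 4 arrays. It had -0.029 with the mutant in Cy5 and 0.68 with it in Cy3 in aged adults, and -0.89 and -0.32 on the young arrays. It differed from metl-6 in being negative on both young arrays.

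**Figure D4:**
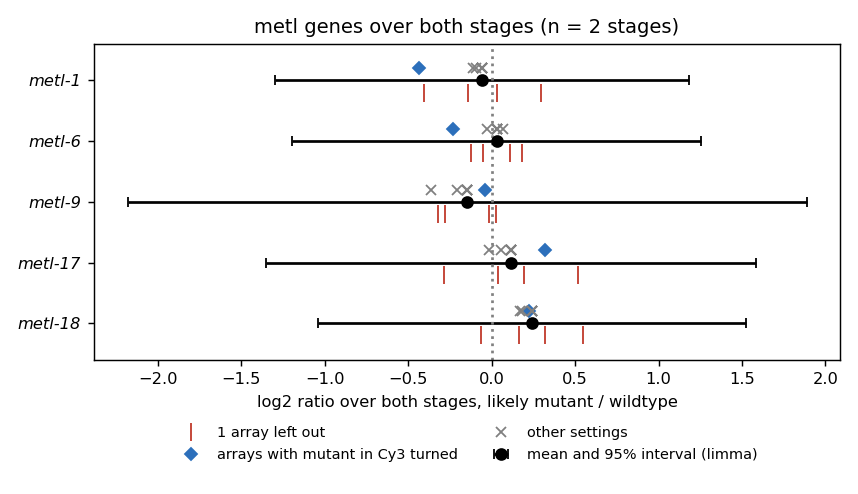
Mean log2 ratio over both stages with its 95% interval by limma (black, n = 2 stages), and the same value with 1 array left out (red ticks), with the arrays that had the mutant in Cy3 turned (blue diamonds) and under the other settings (grey crosses). Every interval includes 0, and all 5 members have settings on both sides of 0.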

How the data were processed

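For each of 22562 probes, 1 value per array was deposited for 4 arrays. Per the submitters' processing notes the scanner signals were processed with Agilent Feature Extraction; the sources used here give neither its version nor its background correction and dye normalization. As deposited, the values were read as log10 ratios of the channels, that program's convention, and were multiplied by 3.32. Values of exactly 0, which made up 43.7% to 52.2% of a column, were treated as missing. Signal over background was not used here, and the number of arrays limits the precision.

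A single gene symbol was available for 7718 probes and several for 0, 14844 had none here, and 7691 were found in WBcel235 by gene identifier. Probes of a gene were averaged on each array. Orientations were averaged within a stage as deposited, and limma 3.58.1 (lmFit and eBayes, in R 4.3.3) tested whether their mean over the stages was 0, with Benjamini-Hochberg adjustment over 2222 genes and a threshold of 0.05. The members and lists were chosen with earlier results of these data known. Named genes were the members, the other genes with the metl or mett stem and a named probe, the 2 nearest genes to each member, up to 6 tested genes of each list with the largest absolute mean, and tested chromosome neighbours. Alternatives changed the scaling, the zeros, the genes tested, the unit of replication, the dye reading and the arrays used. No sequences are printed.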

Additional observations from a re-analysis of the deposited data

Results flagged for a closer look

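Both aged arrays were positive and both young arrays negative for 2 metl genes, so that the stages moved in opposite directions. For metl-9 the aged minus young difference in log2 ratio was 3.04, from stage means of 1.37 in aged and -1.67 in young adults. For metl-17 it was 1.51, from 0.87 and -0.64, where the lower aged array stood at 0.075. With no array turned, the differences were 0.62 and 0.96. With a single RNA sample per genotype in each stage, the differences were not tested, and 19.1% of all tested genes had the same arrangement of signs.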

How the results depend on the processing

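No member passed the threshold in any of the 12 alternative settings. Of 60 member values under these settings 50 kept the direction of the mean over both stages and 10 turned. The cause was not tested. Part of the 50 could not have turned, because each member had 1 probe and a ratio on every array. Keeping zeros, changing the filter on genes, taking probes singly and using stage as a random block left every member's mean unchanged. The 50 is therefore no measure of stability. The mean of metl-6 was -0.029 after centring and -0.23 with the arrays that had the mutant in Cy3 turned, and that of metl-17 was -0.015 after quantile normalization. Leaving out 1 array gave means of -0.41 to 0.29 for metl-1, -0.12 to 0.18 for metl-6, -0.32 to 0.027 for metl-9, -0.28 to 0.51 for metl-17 and -0.062 to 0.54 for metl-18. It gave metl medians of 0.31 to 1.21 in aged adults and -0.80 to 0.036 in young adults. Counts of higher genes over both stages were 13 after centring, 14 after quantile normalization, 3 with stage as a random block, 1 without small ratios and 9 to 20 leaving out 1 array; lower genes numbered 0 to 1 leaving out 1 array. A lone array was assumed to vary like the averages. The counts after centring and quantile normalization are out of 2222 genes. The prior degrees of freedom of limma set how strongly each gene's variance is drawn toward the common value. They were 4.47 in the main fit, 65.25 after centring and infinite after quantile normalization, and higher than in the main fit whenever 1 array was left out. The counts of these settings rest on that common variance and were not read as genotype effects. No paired analysis was possible because the arrays carry no replicate number that links the stages; mutant and wildtype are already paired on each array, and the block above groups the arrays of a stage.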
